A study of Mus musculus with 3 samples.

Results

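The integrin chains described here are 8 genes, 4 alpha chains (Itgam, Itgal, Itga4 and Itgav) and 4 beta chains (Itgb2, Itgb1, Itgb3 and Itgb5), taken by gene symbol from the 11419 genes that the files list. Each gene had 1 entry in every library. Messenger RNA was sequenced from 1 myeloid population of C57BL/6 mouse bone marrow, sorted for cells that carry CD11b, F4/80 (Adgre1) and CD169 (Siglec1) and lack CX3CR1, in 3 libraries with no second population, treatment or control. The labels call the cells macrophages, the series' design text puts that word in quotation marks, and the age and sex of the mice are not stated in either, nor is the mouse behind each library. The spread between libraries may thus be technical.

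Integrins are receptors that join 1 alpha and 1 beta chain at the cell surface and hold cells to other cells and to matrix. The β2 chain pairs with αL (LFA-1), αM (CD11b, Mac-1), αX and αD on leukocytes, where it serves firm adhesion, complement-dependent phagocytosis and migration. The β1 chain has many alpha partners, among them α4 (VLA-4, a receptor for VCAM-1 and fibronectin), and αV pairs with β1, β3, β5 and others to bind ligands with an RGD motif, such as vitronectin. CD11b is the product of Itgam, so the sort itself selected for that chain, and with it for its β2 partner, at the protein level. A high level of Itgam is thus not a finding, and that of Itgb2 is not independent of the sort.

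The values are CPM, the reads of a gene per 1000000 reads assigned to listed genes. Whole reads could be recovered from them, and they summed to 5150020 in replicate 1, 40149274 in replicate 2 and 37604930 in replicate 3. Replicate 1 was thus the shallowest library. Where no read was seen, counting error alone leaves room for 3 reads, which is 0.583, 0.0747 and 0.0798 CPM in replicates 1, 2 and 3. Most marker signal went against the label. All 11 late neutrophil markers were above 10 CPM in the test described next, and their summed level was 183244 to 219869 CPM per library. The 13 macrophage markers summed to 239 to 266 CPM, and 5 of them were above 10 CPM and 6 below. Over all genes tested 58.8% were above and 28.3% below. Siglec1 was below at 2.87 ± 2.20 CPM and Adgre1 was above at 22.2 ± 3.97 CPM (SD, n = 3). The highest macrophage markers, Vcam1 at 74.3 ± 19.3 CPM and Csf1r at 55.1 ± 13.8 CPM, were above too. The cells are therefore called the sorted cells here. In bulk RNA, fewer cells of a type and less RNA per cell cannot be told apart.

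Each gene was set against a fixed level of 10 CPM by fitting limma to log2(CPM + 1) over all 11123 genes with at least 10 reads, with p-values adjusted over all of them by the method of Benjamini and Hochberg. Folds on that scale understate those of CPM, most for low genes and slightly for high ones. For Itgb2 the log2 level was 7.68 on that scale and 7.82 in edgeR on recovered reads. Of the 8 chains, 7 were above 10 CPM and 1, Itgb5, was below, where 58.8% of all genes tested were above and 28.3% below. The quasi-likelihood test of edgeR on the recovered reads made the same 8 calls, with 6630 genes (59.6%) above and 2791 (25.1%) below. The median of the 8 was 91.1 CPM, beside 20.9 CPM over all genes tested. With 8 genes chosen with earlier results known, the counts describe these genes and test nothing about integrins as a family.

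The β2 chains Itgb2, Itgam and Itgal were the highest of the 8 in every library, both in CPM and per kb of exon. Itgb2, the common β2 chain (CD18), was at 2070, 2299 and 2433 CPM in replicates 1, 2 and 3. The 3 libraries lay close together, with a coefficient of variation of 8.10%. Its log2 level over 10 CPM was 7.68 (SE 0.10, limma adjusted p = 1.29e-24). Itgam, the αM chain, was at 483, 460 and 565 CPM, and replicate 3 was the highest. Its log2 level over 10 CPM was 5.51 (SE 0.10, limma adjusted p = 3.47e-22). Itgal, the αL chain (CD11a), was at 312, 430 and 481 CPM, lowest in replicate 1. Its log2 level over 10 CPM was 5.19 (SE 0.12, limma adjusted p = 7.04e-21). Without the variance trend the limma adjusted p of Itgb2, Itgam and Itgal was 1.18e-06, 1.46e-06 and 2.19e-06. The size of these p-values thus depends on how limma borrows variance from other genes.

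The β1 and β3 chains and α4 were above 10 CPM, and under the β2 chains on both scales. Itgb1, the β1 chain, was at 81.7, 63.5 and 104.7 CPM, lowest in replicate 2 (2.91 above the fixed level on the log2 scale, SE 0.14, limma adjusted p = 7.53e-15). Itgb3, the β3 chain of the vitronectin and fibrinogen receptors, was at 81.9, 99.1 and 115.6 CPM, lowest in replicate 1 (log2 3.17, SE 0.13, limma adjusted p = 2.99e-16). Itga4 was at 67.0, 57.8 and 70.1 CPM (log2 2.58, SE 0.13, limma adjusted p = 2.84e-14). All 3 genes were above 10 CPM in every library.

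The αV chain and β5 were the lowest of the 8 on both scales. Itgav, which encodes αV, was at 12.6, 21.7 and 21.8 CPM, with replicate 1, at 65 reads, under the others (0.80 above the fixed level on the log2 scale, SE 0.20, limma adjusted p = 0.000721). With the fixed level at 20 CPM its estimate turned to -0.13 (limma adjusted p = 0.532, and 5.16e-08 to 0.0275 over its other alternatives). Itgb5, the β5 chain, which pairs with αV, was at 1.94, 1.84 and 1.22 CPM, from 10, 74 and 46 reads. All 3 libraries were under 10 CPM (log2 -2.05, SE 0.31, limma adjusted p = 2.50e-06).

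**Figure D1:**
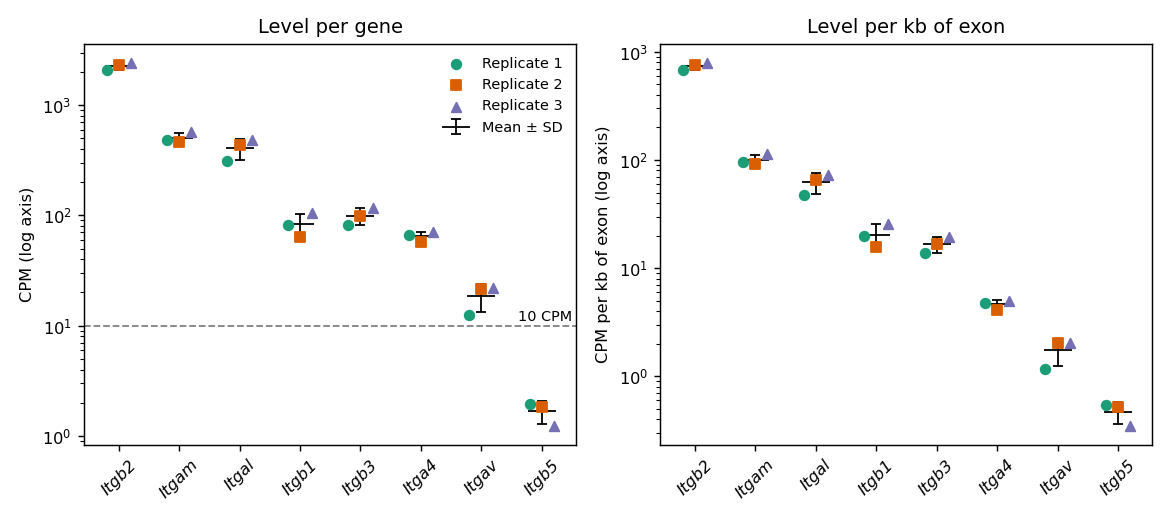
Levels of the 8 integrin chains in each library, as CPM (left) and as CPM per kb of exon (right), both on log axes. Points are the 3 libraries, the black bar is the mean with its SD, and the dashed line is 10 CPM. Itgb2, Itgam and Itgal lie above all other chains in every library, and Itgb5 alone lies under 10 CPM.

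The 8 genes lie on GRCm38, the same assembly as mm10, all on the plus strand and protein-coding. Each interval covers a gene from end to end, exons, introns and UTRs included. Itgam (chr7:128062640-128118491) and Itgal (chr7:127296260-127335138) are both on chromosome 7, and Itga4 (chr2:79255426-79333123) and Itgav (chr2:83724397-83806916) both on chromosome 2. Itgb2 is at chr10:77530252-77565708, Itgb1 at chr8:128685654-128733200, Itgb3 at chr11:104608000-104670476 and Itgb5 at chr16:33829665-33949338. Reads of near-identical genes can be split or lost in counting. Of the 50-base words in the longest coding sequence of Itgal, Itga4, Itgb1, Itgav and Itgb3, none occurred in a transcript of another gene. Over all exon bases, however, 8.04% of Itga4 overlapped exons of Cerkl and 5.90% of Itgav those of Gm13684. Of the 50-base words of Itgb2 1.5% occurred in another gene (Gm14699), and of those of Itgb5 11% (in Gm38317). For Itgam 95.4% also occurred in Gm49368, a gene model whose exons cover 68.7% of the exon bases of Itgam. Gm49368 is not among the listed genes, and the annotation and the handling of shared reads are not given in the sources used here. The level of Itgam is therefore uncertain, and so is each comparison of it with another chain.

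Ratios between genes were taken per length, as CPM per kb of the union of a gene's exons. On that scale Itgb2 was at 678, 753 and 797 CPM per kb in replicates 1, 2 and 3, and its mean ranked 45 of the 11411 genes with a length. Itgam was at 96.2, 91.6 and 112 CPM per kb and Itgal at 47.4, 65.5 and 73.2. Itgb1 followed at 20.03, 15.6 and 25.7 CPM per kb, with Itgb3 at 13.9, 16.8 and 19.6. The median of all genes was 4.37 CPM per kb, close to Itga4 at 4.79, 4.14 and 5.01. Under it were Itgav at 1.17, 2.02 and 2.03 CPM per kb and Itgb5 at 0.547, 0.519 and 0.344.

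The order Itgb2, Itgam, Itgal, then Itgb1 or Itgb3, then Itga4, Itgav and Itgb5 held in every library. The only neighbours that exchanged places were Itgb1 and Itgb3, whose ratio (Itgb3 over Itgb1, per kb) was 0.693, 1.08 and 0.764. Their mean log2 ratio of -0.27 ± 0.34 (SD, n = 3) lay within its own spread. Itgam exceeded Itgal by 2.03, 1.40 and 1.54 times. Itga4 exceeded Itgav by 4.08, 2.05 and 2.48 times. Itgav exceeded Itgb5 by 2.15, 3.90 and 5.88 times, and in replicate 1, where Itgb5 had 10 reads, the exact binomial 95% interval of that ratio was 1.10 to 4.69.

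Set against each of Itga4, Itgb1, Itgav, Itgb3 and Itgb5, each of the 3 β2 chains was higher per kb in 3 of 3 libraries, for all 15 pairs. The pairs with Itgam or its partner Itgb2 are not independent of the sort for CD11b. The closest pair was Itgal over Itgb1, at 2.37, 4.21 and 2.85 times (mean log2 ratio 1.61 ± 0.42, SD, n = 3). In replicate 1 the exact binomial 95% interval of that ratio was 2.13 to 2.64, which covers counting error only. Itgb2 exceeded Itgb1 by 33.9, 48.4 and 31.1 times (log2 5.21 ± 0.34) and Itgb3 by 48.8, 44.8 and 40.7 times (log2 5.48 ± 0.13). The widest gap was Itgb2 over Itgb5, with a mean log2 ratio of 10.65 ± 0.47.

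Itgam exceeded Itgb1 by 4.8, 5.89 and 4.38 times and Itgb3 by 6.92, 5.46 and 5.74 times, per kb. Over Itgav the ratio of Itgam was 81.9, 45.3 and 55.6, widest in replicate 1, where Itgav was lowest. Itgal exceeded Itgb3 by 3.42, 3.90 and 3.74 times. The exact two-sided sign-flip permutation p was 0.25 for each of the 15 pairs, the smallest that 3 libraries allow, and 0.25 after adjustment over the 15. The mean log2 level of the 3 β2 chains exceeded that of Itgb1, Itgb3 and Itgav by 4.40, 4.35 and 4.22 in replicates 1, 2 and 3, a description with no test. This contrast includes Itgam and Itgb2, so it is not independent of the sort either. The mean of 4.32 ± 0.10 corresponds to 20.05 times. With coding length in place of exon length it was 3.63 (log2). With all reads divided by only the exon length that no other gene shares, a setting chosen after the data were seen, it was 4.85. That value holds only if no read in shared bases was counted, which is not known. In each setting tried the 15 mean ratios were above 0 on the log2 scale, the lowest being 1.38 for Itgal over Itgb1 without replicate 2.

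**Figure D2:**
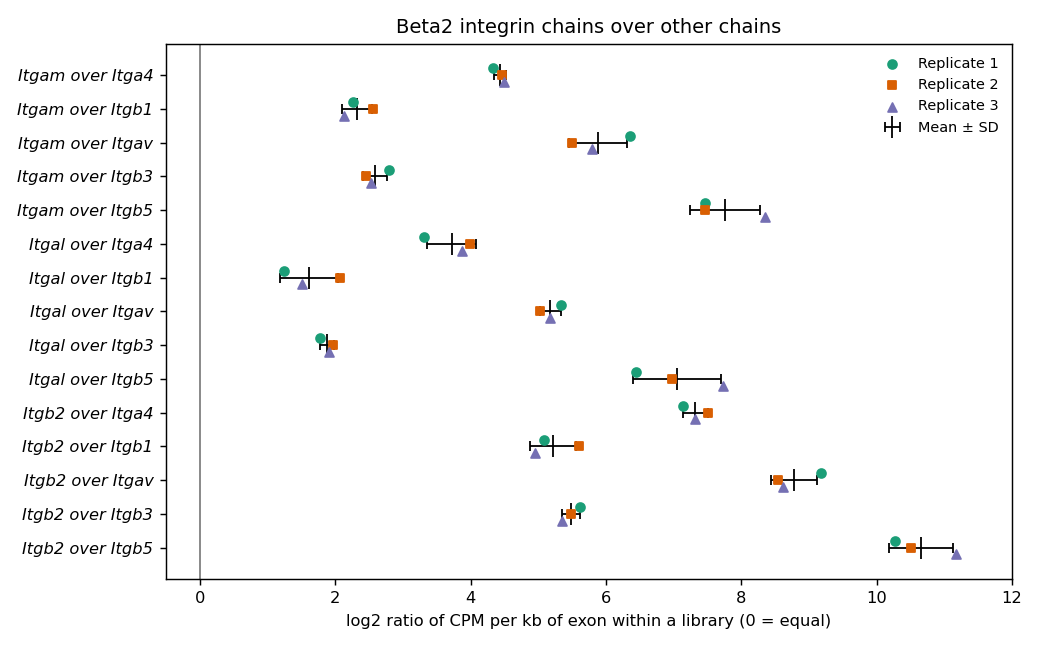
Within-library log2 ratio of CPM per kb of exon of each β2 chain over each of the other 5 chains. Points are the 3 libraries, bars the mean with its SD, and the vertical line at 0 marks equal levels. All points lie to the right of 0, the nearest being Itgal over Itgb1 in replicate 1.

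Within the pool of β chains the β2 chain and its close relative Itgb2l made up nearly all of the signal. The files list 6 β chains. Itgb2 took 68.7%, 69.5% and 70.4% of their summed CPM per kb in replicates 1, 2 and 3 (69.5 ± 0.86%, SD, n = 3). Itgb2l, a mouse gene close in sequence to Itgb2 (pactolus), took 26.3%, 26.04% and 24.6%. Itgb1 had 1.91 ± 0.43%, Itgb3 1.56 ± 0.16%, Itgb7, the partner of α4 and αE, 1.29 ± 0.30% and Itgb5 0.045 ± 0.013%. Without Itgb2l in the pool the share of Itgb2 was 93.5 ± 0.38%. Over the longest transcript in place of all exons the share of Itgb2 was 61.6% and that of Itgb2l 34.1%.

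Itgb2l was at 1124, 1220 and 1206 CPM, and its mean of 274 CPM per kb was exceeded among all listed integrin chains only by that of Itgb2. The libraries differed little, with a coefficient of variation of 4.38% (6.75 above the fixed level on the log2 scale, SE 0.10, limma adjusted p = 6.08e-24). Per kb of exon, Itgb2 exceeded it by 2.61, 2.67 and 2.86 times. Both coding sequences were 74.1% identical over 2200 aligned bases of the GENCODE M21 transcripts, and the longest identical run was 25 bases. No 50-base word of either coding sequence occurred in the other, so stretches of that length can be told apart. The most alike 90 bases of the pair are shown because they are the hardest stretch to assign. Capitals mark the 7 bases that differ, read 5′ to 3′ on the coding strand, from base 1537 of the Itgb2 coding sequence and base 1453 of that of Itgb2l.
Itgb2: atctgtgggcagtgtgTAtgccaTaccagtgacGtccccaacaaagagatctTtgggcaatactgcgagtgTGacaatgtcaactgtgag
Itgb2l: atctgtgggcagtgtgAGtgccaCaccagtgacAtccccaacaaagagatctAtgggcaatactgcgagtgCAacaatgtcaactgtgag

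Among 12 listed alpha chains, Itgam and Itgal together took most of the summed CPM per kb. Itgam had 58.5%, 53.3% and 55.4% and Itgal 28.9%, 38.2% and 36.0% in replicates 1, 2 and 3. The share of Itgam was lower in replicates 2 and 3 than in replicate 1, and that of Itgal higher. Itga4 had 2.60 ± 0.28% and Itgav 0.963 ± 0.233% (SD, n = 3). The 4 alpha partners of β2 (Itgam, Itgal, Itgax and Itgad) summed to 145, 159 and 187 CPM per kb, and Itgb2 alone exceeded that sum by 4.68, 4.74 and 4.27 times. In another setting all reads of a gene were divided by only the exon length that no other gene shares. Itgam then had 79.9% of the alpha pool, and the log2 ratio of Itgb2 over Itgam was 1.22 in place of 2.89. These values hold only if no read in shared bases was counted, which is not known. Itgb3 exceeded Itgav, its partner in the vitronectin receptor, by 11.8, 8.31 and 9.68 times.

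**Figure D3:**
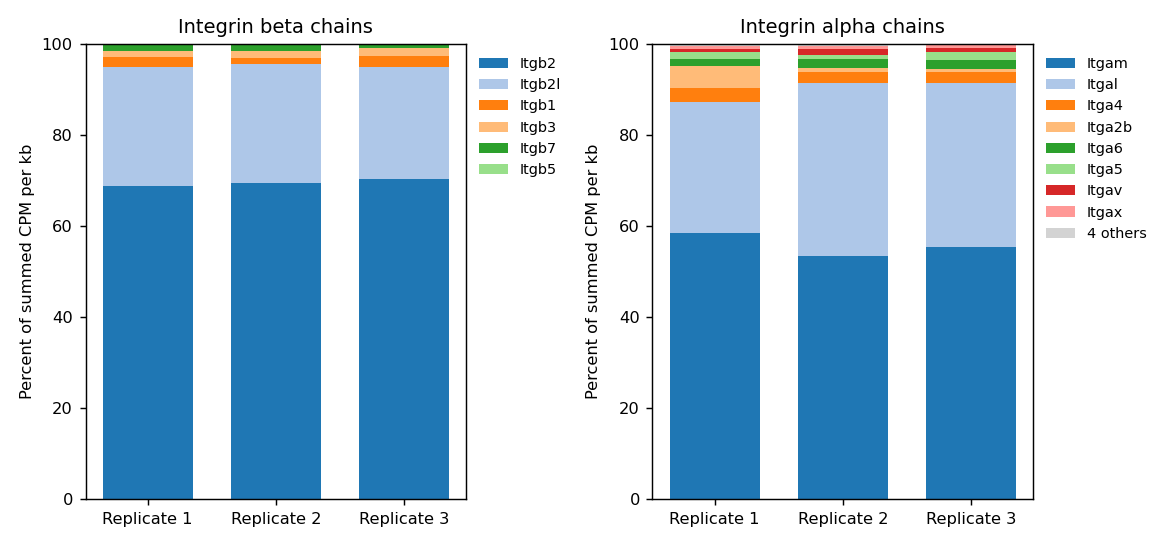
Share of each chain in the summed CPM per kb of exon of the listed β chains (left, 6 genes) and alpha chains (right, 12 genes), as percent, for each library. Itgb2 with Itgb2l and Itgam with Itgal fill most of each bar, and Itga2b is wider in replicate 1.

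Promoter sequence was available for 5 of the 8 chains (RefSeq, GRCm38.p6), namely Itgam, Itga4, Itgb1, Itgav and Itgb5. The 250 bases before the start were searched on both strands for GAGGAA, the core of sites bound by PU.1, a factor of myeloid cells, and for TGTGGT, the core of sites bound by RUNX factors. The first was found in Itgam, Itgb1 and Itgav, that is in 3 of 5, and in 23.3% of the 32851 windows of that length in the table. The second was found in Itga4, that is in 1 of 5, and in 14.05% of those windows. A match is a description of letters, not of binding. Shown are Itgam and Itgb2l, per kb the highest alpha chain and the highest β chain with an entry, and Itgb5, the lowest of the 8. Capitals mark GAGGAA or its reverse complement. Itgam (chr7:128062390-128062639, plus strand) held it 84 bases before the start and, reversed, 15 bases before. Itgb2l (chr16:96443615-96443864, minus strand) held it 33 bases before the start and, reversed, 55 bases before. Itgb5 (chr16:33829415-33829664, plus strand) held neither motif.
Itgam: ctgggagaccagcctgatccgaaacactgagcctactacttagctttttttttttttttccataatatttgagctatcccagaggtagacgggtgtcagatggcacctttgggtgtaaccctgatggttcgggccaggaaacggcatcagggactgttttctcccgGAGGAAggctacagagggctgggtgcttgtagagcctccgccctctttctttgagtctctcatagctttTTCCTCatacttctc
Itgb2l: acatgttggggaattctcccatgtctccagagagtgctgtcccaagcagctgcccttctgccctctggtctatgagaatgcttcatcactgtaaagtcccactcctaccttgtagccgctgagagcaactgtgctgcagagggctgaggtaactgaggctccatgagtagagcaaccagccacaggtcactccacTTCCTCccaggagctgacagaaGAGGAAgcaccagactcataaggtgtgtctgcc
Itgb5: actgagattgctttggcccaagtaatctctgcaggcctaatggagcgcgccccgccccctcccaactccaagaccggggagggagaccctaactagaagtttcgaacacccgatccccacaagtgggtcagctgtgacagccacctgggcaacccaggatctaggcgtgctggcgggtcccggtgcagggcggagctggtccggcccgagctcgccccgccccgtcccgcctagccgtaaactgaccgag

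Of 19 further integrin chains searched, the files list 10, and the level of the other 9 is unknown. Above 10 CPM were 3 of the 10, 5 were below and 2 were called neither way, beside 58.8% above and 28.3% below over all genes tested. Their median was 9.44 CPM, beside 20.9 CPM over all genes tested. Besides Itgb2l, those above were Itgb7 at 40.8, 43.2 and 29.7 CPM (1.80 above the fixed level on the log2 scale, SE 0.16, limma adjusted p = 4.22e-10) and Itga6, the laminin receptor chain α6, at 20.4, 29.6 and 35.2 CPM (log2 1.38, SE 0.18, limma adjusted p = 2.03e-07). Itgax, the αX chain (CD11c), was at 5.63, 5.63 and 5.61 CPM, below 10 CPM (log2 -0.73, SE 0.25, limma adjusted p = 0.00871). Its 3 values were nearly equal, and Itgam exceeded it by 82.0, 78.2 and 96.3 times per kb. Itgad, the αD chain, had 3, 79 and 0 reads, and 18.0% of its 50-base words occurred in other transcripts, those of Itgax among them. For Itgax 11.1% occurred in Itgad. The collagen, tenascin and nephronectin receptor chains Itga1 (0.868 ± 0.934 CPM), Itga9 (1.09 ± 1.09 CPM) and Itga8 (1.77 ± 1.06 CPM) were below 10 CPM too. Without replicate 2 the count below was 3, since Itgax was no longer called (limma adjusted p = 0.064, and 1.76e-06 to 0.589 over all its alternatives) and Itgad had too few reads to be tested.

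Itga2b and Itga5 were called neither way. Itga5, the α5 chain of the fibronectin receptor, was at 12.8, 9.24 and 17.7 CPM. Itga2b, the αIIb chain that joins β3 on platelets, was at 44.9, 7.32 and 7.31 CPM. Replicate 1 stood alone, at 6.13 times the lowest library. Its log2 level was 0.42 over 10 CPM (SE 0.32, limma adjusted p = 0.223). Without replicate 1 it was -0.40 (limma adjusted p = 0.150), and edgeR on recovered reads called it above (adjusted p = 0.0235, with 0.000214 to 0.554 over all its alternatives). The β3 chain did not share that pattern, since Itgb3 was lowest in replicate 1 and its ratio over Itga2b per kb was 1.69, 12.5 and 14.6.

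Among cells that can carry β3 or αIIb, the listed markers of megakaryocytes, platelets and osteoclasts were low. Of 13 megakaryocyte and platelet markers, 6 were listed (Itga2b among them). In the limma test 0 were above 10 CPM and 5 below, beside 58.8% above and 28.3% below over all genes tested. Their summed level was 68.5, 19.5 and 20.8 CPM in replicates 1, 2 and 3. Pf4, a platelet chemokine gene, had 16 reads in replicate 1 and 0 in the others. The test of edgeR on recovered reads called neither Pf4 (adjusted p = 0.0846) nor Gp1bb (adjusted p = 0.0655). The call of Gp1bb was also lost without replicate 2 (limma adjusted p = 0.155) or replicate 3 (0.168). Of 7 osteoclast markers 3 were listed, all below 10 CPM, where 28.3% of all genes tested were, with sums of 5.24, 9.99 and 4.73 CPM. The call of Acp5 was lost without replicate 1 (limma adjusted p = 0.057), without replicate 3 (0.061) and with no filter on reads (0.058). The test of edgeR on recovered reads did not call Ocstamp (adjusted p = 0.053). The part of platelets or osteoclasts in the level of Itgb3 was not tested. All 6 listed basophil and mast cell markers were highest in replicate 1, as Itga2b was, with sums of 978, 137 and 138 CPM. The 8 listed erythroid markers summed to 1004, 555 and 532 CPM, also highest there. The part of these cells in the level of Itga2b was not tested. Of 9 eosinophil markers 7 were above 10 CPM, where 58.8% of all genes tested were. The 9 summed to 629, 1073 and 1465 CPM, and their part in the level of Itga4 or Itgal was not tested.

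**Figure D4:**
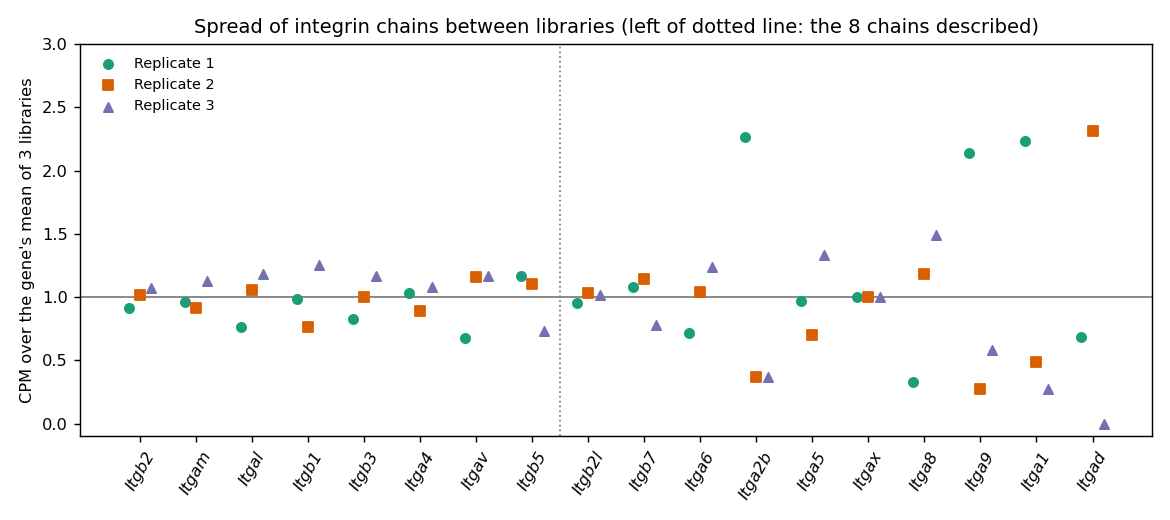
CPM of each listed integrin chain in each library, divided by the gene's mean over the 3 libraries, with the 8 chains left of the dotted line and the other 10 to the right in order of mean level. The 8 chains lie nearer to 1 than Itga2b, Itga9 and Itga1, which are highest in replicate 1, and Itgad, which is highest in replicate 2.

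Between libraries the 8 chains had a median coefficient of variation near that of all genes tested. It ran from 8.10% (Itgb2) to 28.1% (Itgav) with a median of 19.2%, beside a median of 20.6% over all genes tested. The 8 chains were higher in level (median 91.1 CPM beside 20.9 CPM), and genes of like level were not compared. Without replicate 1 the median of the 8 was 12.2% and without replicate 3 it was 11.9%, both given without a value for all genes. Of the 8 chains 7 were highest in replicate 3, all but Itgb5, but with TMM scaling or DESeq2 size factors 4 of 8 were.

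The genes whose levels over the 3 libraries were most like those of a chain were found by the Euclidean distance of log2(CPM per kb + 1) among 11403 genes. Near to Itgam were Olfml2b (distance 0.088) and Cpne2 (0.103). Nearest to Itgb2 were Gnai2, a G protein subunit (0.292), Cfl1, cofilin (0.308) and Msrb1 (0.353). Nearest to Itgb3 were Ubl3 (0.058), Bcl10 (0.069) and Eif4g3 (0.069). With 3 libraries the measure reflects mostly level.

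A list of 17 genes that switch integrins on or restrain them from inside the cell had 15 listed members, all above 10 CPM, where 58.8% of all genes tested were. Their median was 165 CPM, beside 20.9 CPM over all genes tested. Tln1, the talin that binds β tails, was at 1890 ± 340 CPM and Fermt3, kindlin-3 of blood cells, at 571 ± 48.9. Rap1b, the GTPase upstream of talin, was at 350 ± 26.2 CPM and Rasgrp2, its exchange factor, at 317 ± 22.5 (SD, n = 3). Flna, a filamin that competes with talin for β tails, was at 4270 ± 502 CPM.

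Of 19 listed genes of the adhesion complex, which ties integrins to actin, 17 were above 10 CPM and 2 below, beside 58.8% and 28.3% of all genes tested. Their median was 246 CPM, beside 20.9 CPM. Vasp was at 1418 ± 78.0 CPM, Zyx, zyxin, at 1124 ± 71.7, Actn1, an alpha-actinin, at 917 ± 229, Pxn, paxillin, at 735 ± 103 and Parvg, the parvin of blood cells, at 510 ± 43.1 (SD, n = 3). Ptk2, focal adhesion kinase, was below at 0.652 ± 0.440 CPM (log2 -2.77, SE 0.35, limma adjusted p = 2.04e-07). Its relative Ptk2b (Pyk2), chosen after its values were seen, was at 273, 306 and 301 CPM. Parvb was below at 4.87 ± 1.87 CPM (limma adjusted p = 0.00236), a call lost without replicate 2 (limma adjusted p = 0.061) and at a level of 5 CPM (0.785), which left 1 gene below in either case. Over all its alternatives that p ran from 1.03e-06 to 0.785.

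All 11 lateral partners, membrane proteins that associate with integrins, were above 10 CPM, where 58.8% of all genes tested were, with a median of 315 CPM beside 20.9 CPM. The tetraspanin genes Cd9 (426 ± 23.0 CPM), Cd37 (395 ± 19.8), Cd63 (357 ± 38.8) and Cd53 (342 ± 16.8) were among them, with Plaur, the urokinase receptor gene (402 ± 25.7). Of 9 other adhesion genes of leukocytes, 8 were above, 0 below and 1, Pecam1, not called (median 361 CPM), beside the same 58.8% above and 28.3% below over all genes tested. Cd177, a neutrophil surface protein that associates with Mac-1, was at 4924 ± 133 CPM. Selplg, the P-selectin ligand, was at 589 ± 79.9 CPM, Cd44 at 586 ± 89.6 and Spn at 361 ± 11.9 (SD, n = 3).

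Ligand genes lay on both sides of 10 CPM. Of 22 searched, 14 were listed, of which 4 were above 10 CPM, 5 below, 3 not called and 2 (F11r and Lamc1) too low to be tested. Over all genes tested 58.8% were above and 28.3% below. The median of the 14 was 8.26 CPM, beside 20.9 CPM. C3, whose fragment iC3b is bound by αMβ2, was at 3317 ± 453 CPM. Thbs1, thrombospondin 1, was at 215 ± 15.01 CPM, Tgfb1, whose latent form αV integrins bind, at 206 ± 11.96 and Vcam1, the ligand of α4β1, at 74.3 ± 19.3 (SD, n = 3). Icam1, the ligand of αLβ2 and αMβ2, was below at 2.96 ± 1.64 CPM (log2 -1.56, SE 0.31, limma adjusted p = 6.56e-05). Thy1 (2.31 ± 0.806 CPM) and Mfge8, a ligand of αVβ3 and αVβ5 (1.43 ± 1.46 CPM, 15, 55 and 0 reads), were below too.

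**Figure D5:**
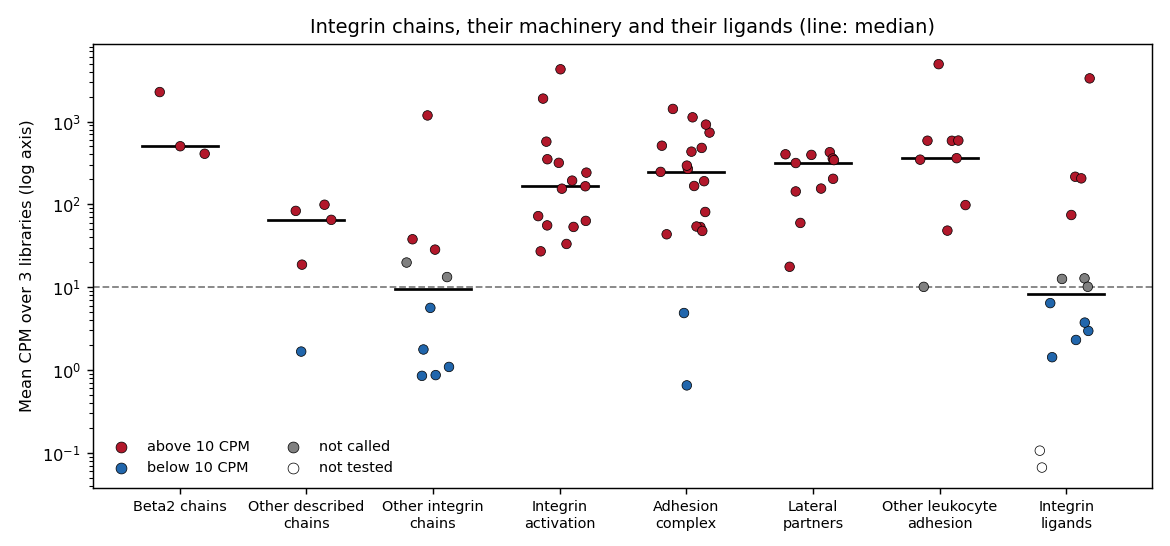
Mean CPM over the 3 libraries (log axis) of each listed gene in 8 lists, with the median as a line, the dashed line at 10 CPM and colour for the limma call. Activation genes and lateral partners are all above 10 CPM, and ligands and further integrin chains are spread on both sides of it.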

How the data were processed

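RNA from sorted marrow cells was sequenced after NEXTflex mRNA library preparation on a NextSeq500, per the labels' protocols. The authors deposited CPM per gene and library. FastQC, STAR, featureCounts and edgeR, with builds mm10 and GRCh38, are named per the submitters' processing notes; versions, annotation, strand setting and gene filter are not given in the sources used here. Of 11463 entries per file, 44 repeated a gene and were dropped. Every CPM value (100%) was a whole number of reads within 0.01 reads. Limma 3.58.1 in R 4.3.3 was the main test, with the variance trend, on genes with at least 10 reads. edgeR 4.0.16, DESeq2 1.42.0, other scalings, levels, pseudocounts, lengths and each library left out were alternatives. Because glmQLFTest needs a second coefficient, the edgeR quasi-likelihood F-test against the fixed level was computed from the null deviance. It was run on simulated data with limma and DESeq2. The simulated spread between libraries was lower than in these data (common biological coefficient of variation 0.326 in edgeR). Those runs therefore do not give its error rate here. Gene lengths and coordinates came from GENCODE M21 (GRCm38), which gave 99.9% of genes a length. The members and lists were chosen with earlier results of these data known. Named were the 8 chains, all further listed chains, up to 5 highest above and 3 lowest below per pathway list, and the 2 highest and 1 lowest of each marker list, of which those near a result are printed, with the sort's genes Siglec1 and Adgre1. Nearest genes to Itgam, Itgb2 and Itgb3 were the 3 of smallest distance. One gene that these rules name is not reported here. The labels name no molecular identifiers, so intervals and limits cover counting error only.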

Additional observations from a re-analysis of the deposited data

How the results depend on the processing

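Of the 8 chains under 12 alternatives, 95 of 96 values kept their side of the fixed level and their call, the exception being Itgav at a level of 20 CPM (-0.13). The count above was 6 there and 7 in each of the other alternatives, and the count below was 1 in all 12. No paired analysis was possible because the labels give 1 group. When 1 library was left out, limma set its prior degrees of freedom to infinity, so those p-values rest on the variance trend alone.

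At a level of 5 CPM, 1870 in place of 3153 genes were below, 5 further chains and 7 ligands were above, and 1 adhesion complex gene and 3 ligands were below. At 20 CPM, 8 ligands and 1 other adhesion gene were below. Leaving out 1 library, 3 to 5 further chains and 1 to 2 adhesion complex genes were below, and the median coefficient of variation of the 8 ran from 11.9% to 20.8%. The log2 contrast of the β2 chains with Itgb1, Itgb3 and Itgav was 3.63 by coding length and 3.87 in reads. That contrast was 4.85 with all reads over the unshared exon length and 4.06 with a pseudocount of 1 CPM per kb. The share of Itgb2 among β chains was 61.6% by longest transcript, 62.4% by coding length and 61.7% in reads.

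Signs turned for Itgb3 over Itgb1 (log2 0.28 by coding length and 0.26 in reads) and Itgb7 over Itga4 (-0.44 and -0.79, from 1.54 per kb of exon), as lengths differ. A moved level turned Itga5 (-0.60) and Treml4 (-0.14) at 20 CPM, and Itgax (0.14), Gp1bb (0.29), Acp5 (0.17), Cd79b (0.84) and Cd79a (0.58) at 5 CPM. Replicate 1, at 5150020 reads, limits what can be said of Itgb5. Itgad is limited by its few reads, 3, 79 and 0, which differed between the deeper replicates 2 and 3.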
